A study of Mus musculus with 6 samples.

Results

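The genes described here are the 7 inhibitors of cyclin-dependent kinases (CDKs), the INK4 genes Cdkn2a, Cdkn2b, Cdkn2c and Cdkn2d and the CIP/KIP genes Cdkn1a, Cdkn1b and Cdkn1c, together with Mtap, Rb1 and Rbl1. All 10 were found among the 46983 genes of the files, by matching symbol to Ensembl identifier. They were chosen by name with their differences between these libraries already known, so those differences are given as descriptions with no test. Cultured fibroblasts, the matrix-making cells of connective tissue, had been derived from C57BL/6 mouse embryos of 14 days, and their RNA was sequenced in 3 libraries labelled wild type and 3 labelled SphK2 null. Both groups were at passage 16 in DMEM medium with 10% fetal bovine serum. SphK2 is sphingosine kinase 2, an enzyme that makes the lipid signal sphingosine-1-phosphate. How the null allele was made and which exons it removes are not given in the sources used here. It is also not stated whether a group's 3 libraries stem from separate embryos or cultures, so every p-value below rests on the spread between libraries alone, and that spread may be technical.

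INK4 proteins bind CDK4 and CDK6 and keep them from pairing with D-type cyclins, whereas CIP/KIP proteins bind complexes of cyclins with CDKs, above all those of CDK2. Both slow the phosphorylation of the pocket proteins RB1, RBL1 (p107) and RBL2 (p130), which hold E2F transcription factors in check until a cell enters S phase. Cdkn2a uses alternative first exons to encode p16INK4a, an INK4 inhibitor, and p19ARF, which binds MDM2 and so stabilises p53, whose best known target is Cdkn1a (p21). In cultured mouse fibroblasts the Ink4-Arf locus is known for its gradual activation with passage, and its loss is a known route to unlimited growth. Mtap, methylthioadenosine phosphorylase of the methionine salvage pathway, lies beside Cdkn2a and Cdkn2b and is known to be deleted together with them in tumours.

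The libraries held 15598566 to 23681718 counts each. Expression is given as CPM, the counts of a gene brought to a common library size with TMM factors, and levels of different genes are compared only as CPM per kilobase of exon (RPKM). A count of 3 corresponds to 0.129 to 0.197 CPM in these libraries. Sphk2 itself went against the labels, at 27.3 ± 0.907 CPM (SD, n = 3) in the libraries labelled wild type and 50.02 ± 1.35 CPM in those labelled null. Its counts were 654, 418 and 503 against 964, 883 and 921, and the annotation does not show whether a deleted stretch is among the exons counted. The groups are therefore called wild-type-labelled and null-labelled. All 12 fibroblast markers tested were lower in the null-labelled libraries, where their summed level was 3361 to 3396 CPM against 14765 to 15241 CPM. Vim made up nearly all of the null-labelled sum, at 3193 to 3228 CPM, and the median log2 fold change of the 12 was −7.79, or −7.36 with Thy1 at its 3-count bound. Col3a1 stood at 3059 ± 76.6 against 8.86 ± 0.423 CPM, and Thy1 had 256 counts against 0. Of other cell types, 2 of 10 epithelial, 3 of 7 immune and 3 of 5 endothelial markers were high enough to be tested. They did not share a direction within a cell type. Of the epithelial ones 1 was called higher and 1 lower, and of the immune and of the endothelial ones 2 higher and 1 lower. The summed epithelial level was 106.7 to 110.0 CPM in the wild-type-labelled and 384 to 411 CPM in the null-labelled libraries, nearly all of it Krt8, and the defining markers Epcam and Cdh1 stayed under 1 CPM in every library. The immune sum was 3.74 to 3.91 against 5.72 to 6.61 CPM, and the endothelial sum was 1.89 to 2.43 against 3.28 to 4.48 CPM. The part of these shifts in the results below was not tested, and in bulk RNA fewer cells of a type and less RNA per cell cannot be told apart.

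Promoter sequences are shown for Cdkn2a, Cdkn2b and Cdkn1a, the genes with the widest differences in either direction among those in the promoter table. The counts pool the transcripts of a gene and do not show which start was used. They are RefSeq promoters on GRCm38.p6, the build of the files, running from 250 bases before to 50 after a start, 5′ to 3′ on the strand of the gene. Capitals mark matches to the GC box GGGCGG, the core of the site bound by Sp1-type factors, on either strand. The first sequence is the start of the p16INK4a transcript at chr4:89282143-89282442 on the minus strand, the second the start of the p19ARF transcript at chr4:89294570-89294869, also minus, and the third that of Cdkn2b at chr4:89310983-89311282, minus. The last is 1 of 2 Cdkn1a starts, at chr17:29093519-29093818 on the plus strand.
Cdkn2a, p16INK4a start: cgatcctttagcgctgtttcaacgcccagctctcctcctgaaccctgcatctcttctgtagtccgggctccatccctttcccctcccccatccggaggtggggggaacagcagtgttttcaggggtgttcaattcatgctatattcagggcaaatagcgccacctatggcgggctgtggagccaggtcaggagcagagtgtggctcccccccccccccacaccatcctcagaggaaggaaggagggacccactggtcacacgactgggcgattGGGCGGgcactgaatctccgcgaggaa
Cdkn2a, p19ARF start: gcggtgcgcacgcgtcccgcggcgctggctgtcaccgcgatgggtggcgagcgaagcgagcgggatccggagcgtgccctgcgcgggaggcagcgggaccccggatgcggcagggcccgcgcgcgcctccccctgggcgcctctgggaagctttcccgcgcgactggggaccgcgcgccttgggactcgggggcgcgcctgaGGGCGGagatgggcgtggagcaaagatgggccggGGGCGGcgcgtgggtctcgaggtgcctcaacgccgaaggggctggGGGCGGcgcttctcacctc
Cdkn2b: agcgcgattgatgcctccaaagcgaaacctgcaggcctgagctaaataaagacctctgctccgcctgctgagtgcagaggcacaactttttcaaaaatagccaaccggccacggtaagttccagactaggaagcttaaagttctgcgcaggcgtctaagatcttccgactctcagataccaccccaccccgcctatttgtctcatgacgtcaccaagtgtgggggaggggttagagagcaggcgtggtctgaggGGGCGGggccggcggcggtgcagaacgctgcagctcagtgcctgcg
Cdkn1a: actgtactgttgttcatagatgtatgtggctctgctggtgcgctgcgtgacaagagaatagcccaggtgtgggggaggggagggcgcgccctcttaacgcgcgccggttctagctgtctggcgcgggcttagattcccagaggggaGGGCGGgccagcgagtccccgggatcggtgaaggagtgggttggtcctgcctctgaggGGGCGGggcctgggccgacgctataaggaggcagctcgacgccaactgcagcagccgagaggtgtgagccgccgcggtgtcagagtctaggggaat
The GC box matched 1 time at the p16INK4a start, 3 times at the p19ARF start, 1 time at the Cdkn2b start and 2 times at this Cdkn1a start, and 35.7% of all 32851 promoters of that length hold it. The p19ARF promoter was 77.0% G and C, against 60.3% at the p16INK4a start, 57.7% at Cdkn2b, 64.7% at this Cdkn1a start and a median of 52.7% over all promoters. It also held 1 match to TTTCCCGC, a form of the E2F site found in 1.07% of promoters. The Cdkn1a start not printed had 0 GC boxes and was 54.7% G and C. Among the other members, Cdkn2d had 5 GC boxes, the 2 starts of Cdkn2c had 4 and 0, Cdkn1b and Rbl1 had 1 each, and Mtap had 0. In all, 8 of the 10 members had a promoter in the table, with 11 starts between them. TATAAA and the other E2F form searched, TTTGGCGC, matched none of the 11, and CACGTG matched only the Cdkn2c start without a GC box. Over all promoters these motifs were found in 13.6%, 0.514% and 7.15%. A match is a description of the letters and not a site of binding.

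Cdkn2a was the member with the widest difference and was almost without reads in the null-labelled libraries. The gene lies on chromosome 4 from 89274471 to 89294653, on the minus strand of GRCm38. The wild-type-labelled libraries held 6492, 4368 and 5339 counts of it, the null-labelled ones 7, 8 and 10. As CPM these were 279, 287 and 279.5 against 0.359, 0.467 and 0.533. All 3 wild-type-labelled libraries were high, all 3 null-labelled libraries were near the level of a few reads, and the groups did not overlap. The means were 282 ± 4.15 and 0.453 ± 0.0881 CPM (SD, n = 3 each), so the null-labelled level was 0.161% of the other. The ratio of summed counts was 623, with a 95% counting interval of 422 to 963, and the fitted log2 fold change was −9.26 ± 0.08 (SE). Such intervals cover counting error alone, because without molecular identifiers 2 reads may stem from 1 molecule. The count pools both products of the gene. Of 1172 exonic bases, 575 (49.1%) are common to the 2 coding transcripts, 277 belong only to that of p16INK4a and 320 only to that of p19ARF, and the files do not separate them.

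Cdkn2b encodes p15INK4b, an inhibitor of CDK4 and CDK6 known to be induced by TGF-beta. It lies 11.6 kb from Cdkn2a, at 89306289 to 89311032 on chromosome 4, minus strand. Its level was 44.8, 44.7 and 41.5 CPM under the wild-type label but 0.154, 0.0584 and 0.0533 CPM under the null label. The latter values stand for 3, 1 and 1 counts, against 1042, 681 and 793, so the groups were far apart and none of the null-labelled libraries exceeded the 3-count level. The ratio of summed counts was 484, with a counting interval of 207 to 1492, and the fitted log2 fold change was −8.82 ± 0.16.

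Mtap, the third gene of this cluster, was lower in the same libraries but kept a high level. It lies 93.4 kb from Cdkn2a, at 89137122 to 89181081 on the plus strand. Its counts were 9526, 6310 and 8079 against 3538, 3061 and 3409. In CPM the wild-type-labelled libraries held 409.8, 414 and 423 and the null-labelled ones 181.3, 178.8 and 181.7. The groups did not overlap, and the libraries of each lay close together, with a coefficient of variation of 1.62% and 0.874%. The means of 416 ± 6.72 and 181 ± 1.58 CPM differed 2.30-fold, and the fitted log2 fold change was −1.20 ± 0.03. The null-labelled libraries thus kept 43.5% of the Mtap level, where Cdkn2a and Cdkn2b kept 0.161% and 0.203%.

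The other INK4 genes differed far less than that pair, and in opposite directions. Cdkn2c encodes p18INK4c and is on the same chromosome, at 109660876 to 109667189, but 20.4 Mb from Cdkn2a. Its level was 96.4, 103.7 and 93.8 CPM under the wild-type label, against 58.7, 54.96 and 55.3 CPM under the null label. Every null-labelled value was below every wild-type-labelled value, with means of 98.0 ± 5.14 and 56.3 ± 2.07 CPM and a log2 fold change of −0.79 ± 0.04. Cdkn2d encodes p19INK4d and lies on chromosome 9 at 21288463 to 21291209. It stood at 24.3, 25.0 and 21.8 CPM against 38.3, 40.8 and 40.9 CPM, so that all null-labelled libraries were higher. The means were 23.73 ± 1.67 and 40.0 ± 1.46 CPM, a 1.69-fold difference with a log2 fold change of 0.75 ± 0.06.

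**Figure D1:**
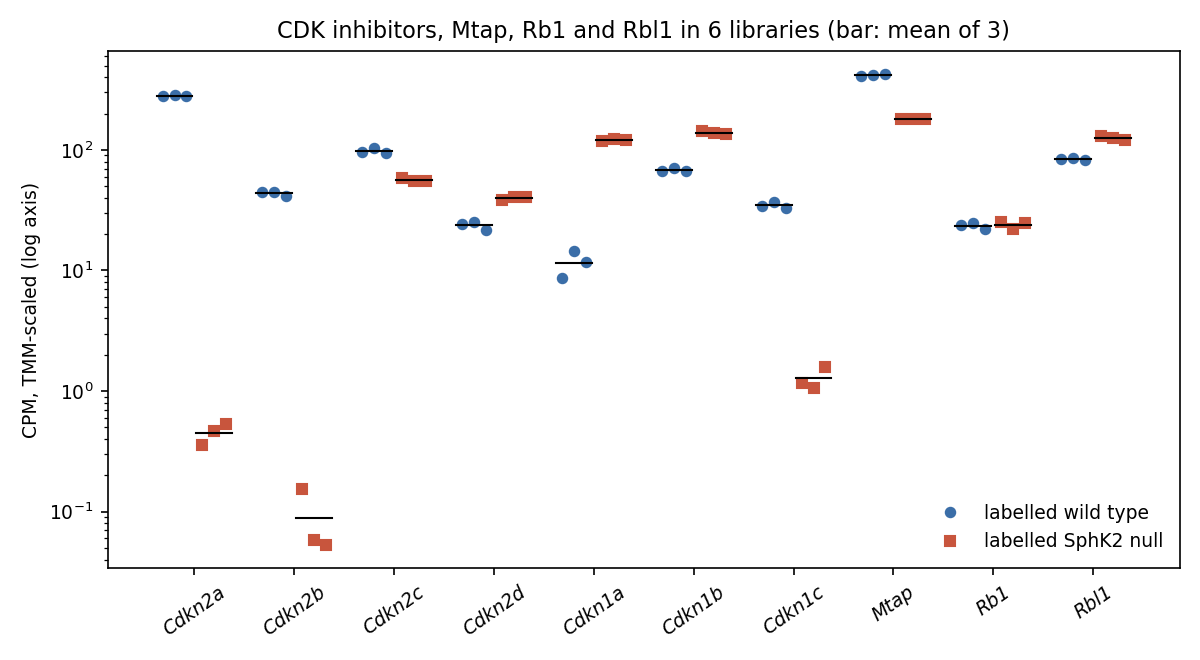
The 10 genes are on the x axis and TMM-scaled CPM is on a log y axis, with blue circles for the 3 wild-type-labelled libraries, red squares for the 3 null-labelled libraries and a black bar for each mean. Cdkn2a and Cdkn2b were under 1 CPM in the red libraries, Cdkn1a stood near 120 CPM there against 8.60 to 14.4 CPM, and the groups overlapped for Rb1.

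Cdkn1a encodes p21, the CIP/KIP inhibitor that p53 induces after DNA damage, and it was the member with the widest difference upward. The gene lies on chromosome 17 at 29090979 to 29100722, plus strand. The wild-type-labelled libraries held 200, 219 and 225 counts, the null-labelled ones 2312, 2092 and 2255. The levels were 8.60, 14.4 and 11.8 CPM against 118, 122 and 120 CPM, and the groups did not overlap. The wild-type-labelled libraries were more spread out here than for any other member, with a coefficient of variation of 24.9%, while that of the null-labelled libraries was 1.56%. The means of 11.6 ± 2.89 and 120 ± 1.87 CPM differed 10.4-fold, and the log2 fold change was 3.42 ± 0.06.

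Cdkn1b encodes p27, an inhibitor of CDK2 complexes that accumulates in quiescent cells, and lies on chromosome 6 at 134920401 to 134925513. It stood at 66.2, 70.5 and 67.3 CPM in the wild-type-labelled and 143, 137 and 136 CPM in the null-labelled libraries. All null-labelled values were about 2 times the others, with means of 68.0 ± 2.24 and 139 ± 3.96 CPM and a log2 fold change of 1.03 ± 0.04. Cdkn1c encodes p57, the imprinted CIP/KIP inhibitor expressed from the maternal allele, and lies on chromosome 7 at 143458350 to 143461050. It ran the other way, at 34.3, 37.2 and 32.8 CPM against 1.18, 1.05 and 1.599 CPM. The null-labelled libraries held 23, 18 and 30 counts, which is well above the 3-count level, and 3.67% of the wild-type-labelled mean of 34.8 ± 2.25 CPM. The ratio of summed counts was 27.0, with a counting interval of 21.3 to 34.7, and the log2 fold change was −4.75 ± 0.11. The 3 CIP/KIP genes thus did not share a direction.

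Of the pocket proteins, Rb1, the retinoblastoma tumour suppressor, was the member whose groups overlapped. It lies on chromosome 14 at 73183673 to 73325822 and stood at 23.9, 24.7 and 21.99 CPM against 25.0, 22.3 and 24.7 CPM. The means of 23.5 ± 1.38 and 24.0 ± 1.52 CPM differed by less than the spread of either group, and the log2 fold change was 0.04 ± 0.06. Of its 6015 exonic bases, 8.11% are shared with Rcbtb2 and 6.78% with Lpar6 on the opposite strand, and reads lying there are not counted under featureCounts' default. No other member shares exonic bases with another gene. Rbl1, which encodes p107 and is itself an E2F target, lies on chromosome 2 at 157145893 to 157204534. It stood at 83.3, 84.8 and 82.5 CPM against 131, 126 and 121 CPM, higher in each null-labelled library. The means of 83.6 ± 1.18 and 126 ± 5.32 CPM differed 1.51-fold, with a log2 fold change of 0.59 ± 0.03.

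Over the whole table, 15199 genes passed the filter on low counts, all 10 members among them. A large part of these genes differed between the labels. By edgeR's quasi-likelihood test with Benjamini-Hochberg adjustment at 0.05, 38.1% were called higher under the null label and 41.1% lower, around a median log2 fold change of −0.02. Groups did not overlap for 79.9% of tested genes, 10.4% were over 2-fold higher and 15.8% over 2-fold lower. Among the members, 9 of 10 did not overlap, 2 (Cdkn1a and Cdkn1b) were over 2-fold higher and 4 (Cdkn2a, Cdkn2b, Cdkn1c and Mtap) over 2-fold lower. Because the members were picked on this contrast, nothing is read from those counts.

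Per exon length, the INK4 genes carried most of the inhibitor RNA in the wild-type-labelled libraries and the CIP/KIP genes most of it in the null-labelled ones. In the former, Cdkn2a was first at 240 RPKM, followed by Cdkn2c at 36.5, Cdkn2b at 31.4, Cdkn2d at 18.7, Cdkn1c at 17.997, Cdkn1b at 14.9 and Cdkn1a at 5.21 RPKM. Neighbours in that order did not overlap over the 3 libraries except Cdkn2d and Cdkn1c. In the null-labelled libraries Cdkn1a moved from last to first at 54.1 RPKM, before Cdkn2d at 31.5, Cdkn1b at 30.5, Cdkn2c at 21.0, Cdkn1c at 0.661, Cdkn2a at 0.387 and Cdkn2b at 0.0635 RPKM, and only Cdkn2d and Cdkn1b overlapped.

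The sum over the 4 INK4 genes was 327 ± 7.35 RPKM in the wild-type-labelled and 52.9 ± 0.431 RPKM in the null-labelled libraries. The sum over the 3 CIP/KIP genes was 38.2 ± 2.70 against 85.2 ± 0.443 RPKM. The increase in one family was smaller than the decrease in the other, so all 7 together came to 365 ± 9.78 against 138 ± 0.440 RPKM, a 2.64-fold lower total. Cdkn2a alone made up 65.9 ± 0.853% of the wild-type-labelled total and 0.280 ± 0.0542% of the null-labelled one. Cdkn1a made up 1.42 ± 0.328% and 39.2 ± 0.488%, and the INK4 family as a whole 89.6 ± 0.484% and 38.3 ± 0.275%. These sums and shares count p19ARF transcripts within Cdkn2a, in a part that is not known. RNA levels carry no information on the amount or the binding of the proteins.

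**Figure D2:**
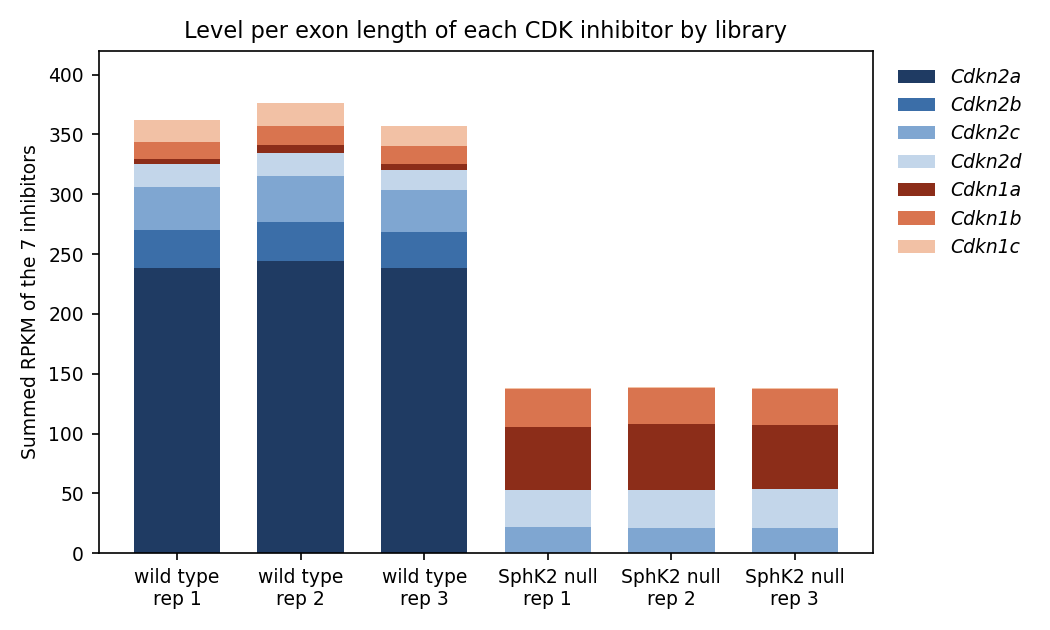
Stacked bars give the RPKM of each of the 7 inhibitors in each of the 6 libraries, INK4 genes in blues and CIP/KIP genes in reds, with summed RPKM on the y axis from 0. The Cdkn2a block of about 240 RPKM, with p16INK4a and p19ARF pooled, fills most of the wild-type-labelled bars. It is not visible in the null-labelled bars, where Cdkn1a is the largest block at about 54 RPKM.

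The genes around Cdkn2a were then examined by position alone, taking each gene within 1 Mb of it. Of 68 genes in that window, Cdkn2b and Mtap among them, 31 had no count in any library, 21 had under 10 counts and 16 had at least 10. Of the 31 silent ones, 13 belong to the interferon cluster beside the locus, whose 18 genes held 15 counts in all. Apart from the members, 8 of 66 genes were high enough to be tested, of which 7 were lower and 1 higher, beside 41.1% and 38.1% over all tested genes. Their median log2 fold change was −3.69, or −3.41 with genes at 0 counts set to their 3-count bound. Wincr1, Gm12602, Gm12610 and Dmrta1 passed the filter through their wild-type-labelled counts alone, so they could only come out lower. Nothing is read from the split or from that median. The window was looked at because its members were known to differ.

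On the Mtap side, Klhl9, a substrate adaptor of a CUL3 ubiquitin ligase 552 kb away, fell from 129.7 ± 2.87 to 87.4 ± 3.30 CPM (log2 fold change −0.57 ± 0.03, edgeR adjusted p = 1.19e-61). Hacd4, an enzyme of very long chain fatty acid synthesis 836 kb away, fell from 27.5 ± 0.143 to 3.66 ± 0.335 CPM (−2.91 ± 0.09, adjusted p = 3.48e-213). Focad, which encodes the focal adhesion protein focadhesin 863 kb away, fell from 68.6 ± 1.46 to 49.2 ± 2.49 CPM (−0.47 ± 0.04, adjusted p = 9.61e-28). The higher gene was the pseudogene Mrpl48-ps at 675 kb, with 6.51 ± 0.365 against 9.03 ± 0.286 CPM (0.48 ± 0.11, adjusted p = 1.55e-05), and reads from its parent gene may be counted there. For each of these 4 genes all 3 libraries of one group lay on one side of the other group, and all 4 kept at least 62 counts in every library.

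Closer in, all 4 other tested genes were nearly without counts in the null-labelled libraries. Wincr1, a long non-coding RNA 190 kb from Cdkn2a, held 93, 55 and 72 counts against 0, 0 and 1, 212 times as many after scaling (95% counting interval 37.6 to 8397.) The predicted non-coding gene Gm12602, 146 kb away and thus next to Mtap, held 48, 33 and 49 counts against 0 in all 3 libraries, at least 41.7-fold lower. On the Cdkn2b side, Gm12610 at 127 kb held 47 counts in all against 0, at least 15.1-fold lower, and Gm12609, too low to be tested, held 40 against 0, at least 12.8-fold lower. These bounds take 3 counts over the group, and all predicted genes of the window were named after their values had been seen. Dmrta1, which encodes a doublesex-related transcription factor 385 kb away, held 54 counts against 2, 26.0 times as many after scaling (95% counting interval 6.85 to 220.) The other untested genes with at least 10 counts did not share a direction. Gm13283, 513 kb away on the Mtap side, held 11 counts against 28 without overlap, and its neighbour Gm13284 held 8 against 13 with overlap. Gm12608, 148 kb away on the Cdkn2b side, held 11 against 5 with overlap. The microRNA gene Mir31 held 10 counts against 0 and Zfp352, at 924 kb, stood at 0.731 ± 0.212 against 0.195 ± 0.0714 CPM. Of the genes between Wincr1 and Dmrta1 with a wild-type-labelled mean over 1 CPM, only Mtap kept more than 1 CPM in the null-labelled libraries. Gm12608, Gm12609 and Gm12610 in that stretch had wild-type-labelled means of 0.188, 0.657 and 0.832 CPM, so that level could not be lost there. Genes without null-labelled counts also lay beyond the window. Adamtsl1, 2846 kb away on the Mtap side, held 342 counts against 0, and Elavl2, 1956 kb away on the Cdkn2b side and untested, 58 against 0. Others beyond it kept theirs, such as Mllt3 with 3015 against 1754.

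**Figure D3:**
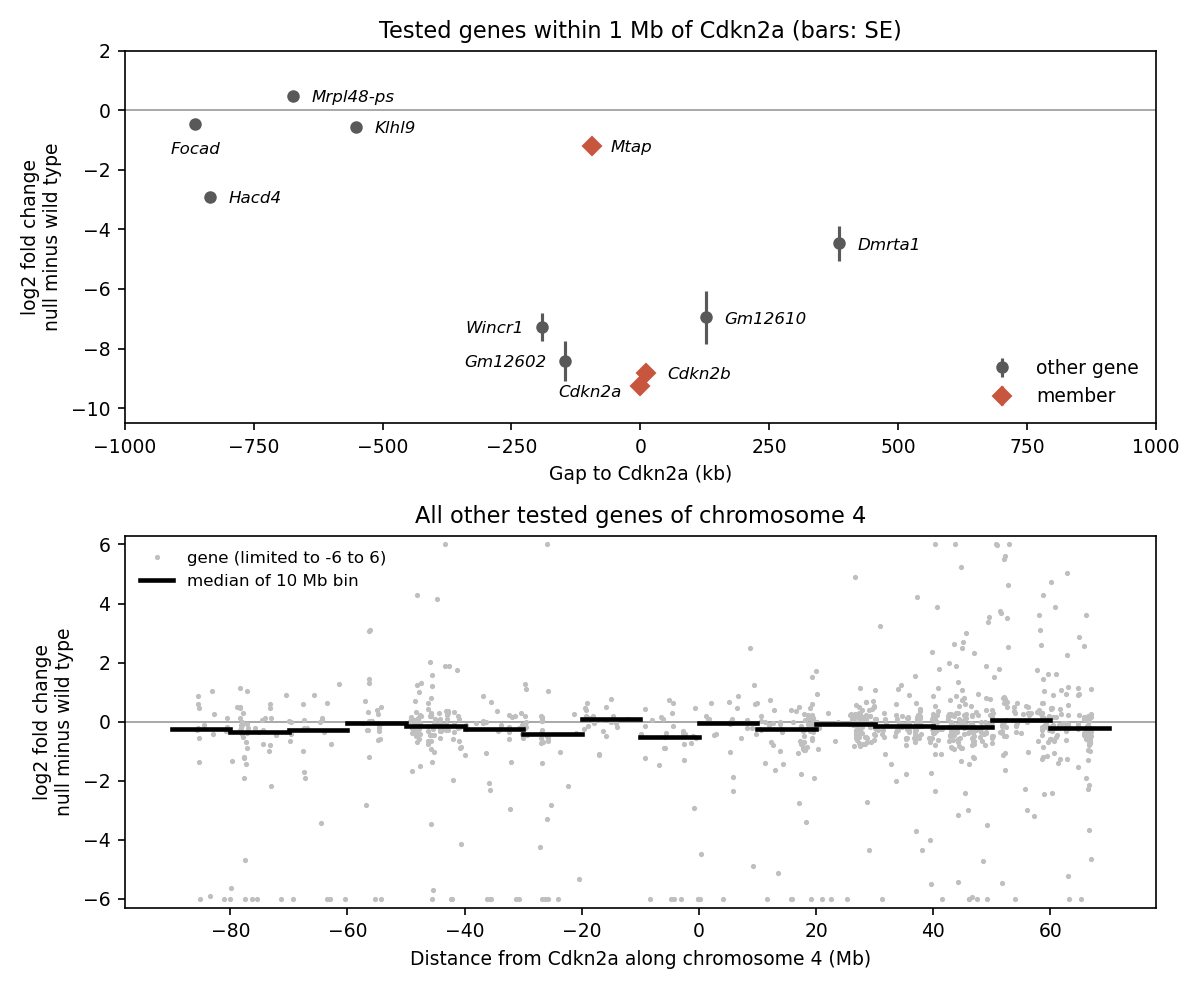
The upper panel plots the fitted log2 fold change (null minus wild type, with SE bars) of tested genes against the gap to Cdkn2a in kb, red diamonds for members and grey circles for other genes. The lower panel plots every other tested gene of chromosome 4 against its distance in Mb, limited to −6 to 6, with the median of each 10 Mb bin as a black line. The lowest values of the upper panel are those of Cdkn2a, Cdkn2b, Wincr1, Gm12602, Gm12610 and Dmrta1. The members were chosen with their difference known, and the other genes passed the filter through wild-type-labelled counts alone. Single genes as low also lie elsewhere on the chromosome, such as Adamtsl1 (−9.81) and Tusc1 (−10.4). The bin medians of the lower panel stay between −0.50 and 0.08 and are not set against single genes.

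The 1 Mb windows around Cdkn2b and around Mtap hold the same 8 tested genes as that around Cdkn2a, so their median of −3.69 adds nothing. Around the members outside this cluster the medians were nearer 0. Since Wincr1, Gm12602, Gm12610 and Dmrta1 could only come out lower, nothing is read from that contrast. Around Cdkn2c, 3 of 16 tested genes were higher and 7 lower (median log2 fold change −0.09). Around Cdkn1a these counts were 17 and 7 of 34 (median 0.10), around Cdkn1b 10 and 6 of 18 (0.29) and around Cdkn1c 10 and 9 of 21 (0.14). The windows of Cdkn2d (63 genes, 0.24), Rbl1 (35 genes, −0.05) and Rb1 (8 genes, −0.60) completed the set, and around Rb1 6 genes were lower and 1 higher.

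Chromosome 4 as a whole had 989 tested genes, of which 50.6% were lower and 26.8% higher. Its median log2 fold change of −0.15 was the fifth lowest of 20 chromosomes. In bins of 10 Mb from Cdkn2a, the bin on its Mtap side had 21 of 32 genes lower and 5 higher, with the lowest median of the 16 bins at −0.50. The bin on the Cdkn2b side had 12 of 30 lower and 6 higher, with a median of −0.05. The medians of the other bins ran from −0.42 to 0.08. None of these differences between windows or bins was tested.

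The kinases that INK4 proteins inhibit and their cyclins were all 5 called, 2 higher and 3 lower, with a median of −0.10. For this list and those below, 38.1% of all tested genes were called higher and 41.1% lower. Ccnd2 (cyclin D2) rose from 158 ± 0.209 to 524 ± 9.07 CPM, a log2 fold change of 1.73 ± 0.03. Cdk4 fell from 454 ± 5.12 to 271 ± 4.12 CPM (−0.74 ± 0.02, edgeR adjusted p = 1.77e-202), and Cdk6 rose from 187 ± 6.18 to 244 ± 10.5 CPM (0.38 ± 0.03, adjusted p = 9.05e-45). The remaining D-type cyclins fell by less, Ccnd3 with a log2 fold change of −0.25 and Ccnd1, the most abundant, with −0.10.

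Of the CDK1 and CDK2 group, which CIP/KIP proteins act on, 15 of 16 genes were tested, 8 rose and 4 fell, with a median of 0.21. Ccne1 (cyclin E1, the partner of CDK2 at the G1/S border) rose from 92.2 ± 2.36 to 156 ± 3.39 CPM (0.76 ± 0.03). The phosphatases that activate CDKs rose as well, Cdc25b by a log2 fold change of 0.68 ± 0.03 and Cdc25c by 0.56 ± 0.04. Cdk2 itself, at 75.7 ± 3.50 and 78.0 ± 0.686 CPM, did not pass the test (edgeR adjusted p = 0.341).

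Of 17 genes for E2F and DP factors and for their partners in pocket protein complexes, 11 rose and 3 fell, with a median of 0.24. E2f2, an activating E2F, rose from 19.3 ± 1.08 to 96.5 ± 1.75 CPM (2.31 ± 0.05), and E2f8, a repressive E2F that is itself induced in S phase, from 78.7 ± 4.69 to 248 ± 12.3 CPM (1.65 ± 0.03). Rbl2 (p130), the pocket protein of resting cells, rose from 46.8 ± 1.63 to 87.0 ± 2.39 CPM (0.90 ± 0.04). E2f1 went the other way, from 90.4 ± 3.999 to 70.0 ± 1.63 CPM (−0.37 ± 0.04).

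All 22 E2F target genes of replication were called, but not in 1 direction, with 14 higher, 8 lower and a median of 0.12. Over all tested genes, 38.1% were called higher and 41.1% lower. Cdt1, which loads the MCM helicase, rose from 140 ± 2.00 to 280 ± 4.29 CPM (1.00 ± 0.03). Of the helicase subunits, Mcm5 rose from 314 ± 6.78 to 577 ± 16.0 CPM (0.87 ± 0.02) and Mcm4 fell from 366 ± 0.920 to 213 ± 3.65 CPM (−0.78 ± 0.03). Of the ubiquitin ligases that degrade CIP/KIP proteins, 6 of 11 rose and 3 fell, with a median of 0.23. Cul1, the scaffold of the ligase that degrades p27, rose with a log2 fold change of 0.64 ± 0.02, and Rnf123, of another ligase of p27, with 0.53 ± 0.05. Dtl, the receptor of the ligase that degrades p21 and CDT1, fell from 188.5 ± 0.436 to 130.0 ± 2.49 CPM (−0.54 ± 0.03). Skp2, the receptor for p27, fell from 106 ± 1.28 to 99.0 ± 1.71 CPM (−0.10 ± 0.03).

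The genes that link p19ARF to p53 differed little. Of 6, 1 rose and 3 fell, with a median of −0.04. Trp53, the gene of p53, stood at 224 ± 1.94 and 226 ± 3.44 CPM and did not pass the test (log2 fold change 0.01 ± 0.03, edgeR adjusted p = 0.615). Mdm2, the ligase that ARF binds and a p53 target as well, fell slightly from 74.0 ± 0.634 to 68.6 ± 2.06 CPM (−0.11 ± 0.04, adjusted p = 0.00778). Usp7, a deubiquitinase of MDM2 and p53, fell by a similar amount (−0.11 ± 0.02), and Huwe1, another ligase that ARF binds, rose (0.36 ± 0.02).

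Targets of p53 other than Cdkn1a, of which 22 of 23 were tested, comprised 9 that rose and 8 that fell, with a median of −0.03. Bax, of the apoptotic pathway, rose from 79.4 ± 2.21 to 128 ± 3.64 CPM (0.69 ± 0.03) and Fas, a death receptor, from 9.21 ± 0.366 to 21.8 ± 0.541 CPM (1.25 ± 0.08). Ddb2, a DNA damage sensor, fell from 3.78 ± 0.0825 to 0.334 ± 0.214 CPM (−3.51 ± 0.27). Pmaip1 (NOXA), named after its value was seen, had 162 counts against 0, at least 51.9-fold lower. The 10.4-fold difference of Cdkn1a was thus larger than that of any p53 target of this list that was higher.

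Another list held 25 known regulators of the Ink4-Arf locus, chiefly Polycomb proteins, their opponents and transcription factors. Of 24 tested, 13 rose and 8 fell, with a median of 0.20, beside 38.1% higher and 41.1% lower over all tested genes. Hmga2, a chromatin protein that represses the locus in young stem cells, fell from 422 ± 3.81 to 68.5 ± 2.65 CPM (−2.62 ± 0.03). Ets2, an activator of the p16INK4a promoter, rose from 61.5 ± 2.35 to 205 ± 6.04 CPM (1.73 ± 0.03), and the histone H3K27 demethylase Kdm6a fell from 83.4 ± 2.47 to 25.2 ± 0.784 CPM (−1.73 ± 0.05). Ezh2, the H3K27 methyltransferase of Polycomb repressive complexes, rose from 156 ± 4.85 to 330 ± 3.17 CPM (1.09 ± 0.03), and Bmi1, a subunit of Polycomb repressive complex 1 known to repress the locus in fibroblasts, from 127 ± 1.51 to 158 ± 3.57 CPM (0.32 ± 0.03). Other Polycomb genes fell, Rnf2, the catalytic ubiquitin ligase of the complex with Bmi1, from 159 ± 2.75 to 79.0 ± 4.56 CPM (−1.01 ± 0.03) and Cbx6, a chromodomain subunit, from 282 ± 2.73 to 103 ± 2.66 CPM (−1.46 ± 0.03). These 4 genes were named after their values were seen.

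Of 18 transcriptional regulators of the CIP/KIP genes, 8 rose and 9 fell, with a median of −0.04. Cebpa, an activator of Cdkn1a and a stabiliser of its protein, held 475 counts in the wild-type-labelled libraries and 1 in the others, 457 times as many after scaling (95% counting interval 81.6 to 18086.) Foxo1, which activates Cdkn1b, fell from 32.2 ± 0.951 to 0.159 ± 0.0871 CPM (−7.57 ± 0.17), and Cebpd from 28.7 ± 2.72 to 2.48 ± 0.500 CPM (−3.52 ± 0.10). Of the other FOXO genes listed, Foxo3 fell from 73.8 ± 4.62 to 49.0 ± 1.15 CPM (−0.60 ± 0.04). Foxo4 rose from 36.2 ± 1.75 to 61.2 ± 2.15 CPM (0.76 ± 0.05). Foxo3 and Foxo4 were named after their values were seen, and a link of any of these genes to Cdkn1b was not tested. Sp1, whose motif is the GC box shown above, stood at 199.5 ± 3.17 and 203 ± 2.42 CPM and did not pass the test (edgeR adjusted p = 0.347).

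Among genes associated with senescence, the arrest that INK4 and CIP/KIP inhibitors help to maintain, 19 of 20 were tested, 7 rose and 11 fell, with a median of −1.35. Igfbp3, Igfbp7, Il6, Mmp10 and Mmp13 passed the filter through their wild-type-labelled counts alone, so they could only come out lower. Nothing is read from that split or median. Igfbp7 fell from 48.8 ± 2.01 to 0.144 ± 0.0602 CPM (−8.33 ± 0.15) and Plau, urokinase, from 129 ± 6.99 to 3.72 ± 0.338 CPM (−5.11 ± 0.06). Among those that rose, Igfbp5 went from 3.58 ± 0.545 to 19.7 ± 2.36 CPM (2.43 ± 0.10) and Glb1 from 36.4 ± 2.41 to 61.4 ± 1.36 CPM (0.76 ± 0.05). Igfbp5 and Glb1 were named after their values were seen. Several genes of this list encode secreted products of fibroblasts, and the fibroblast markers were lower in the same libraries, as given above. The part of that shift in the list was not tested.

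Cdkn1c stands in an imprinted region of chromosome 7, and of 14 listed neighbours 12 were tested, with 7 higher, 4 lower and a median of 0.23. H19, a maternally expressed non-coding RNA, held 1894 counts against 2, 911 times as many after scaling (95% counting interval 252 to 7528.) Cd81, a tetraspanin gene, fell from 152 ± 1.41 to 2.33 ± 0.0713 CPM (−6.02 ± 0.07) and Tssc4 from 25.8 ± 1.69 to 0.511 ± 0.119 CPM (−5.65 ± 0.15). Phlda2, which like Cdkn1c is expressed from the maternal allele, rose from 6.68 ± 0.298 to 30.1 ± 0.786 CPM (2.17 ± 0.08), and the antisense RNA Kcnq1ot1 from 12.9 ± 1.07 to 22.1 ± 2.94 CPM (0.76 ± 0.07). Kcnq1ot1 and Kcnq1 overlap on opposite strands and the counting was not set to use strand. Phlda2 and Kcnq1ot1 were named after their values were seen. Genes of this region thus lay in both directions around Cdkn1c, which was itself lower.

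**Figure D4:**
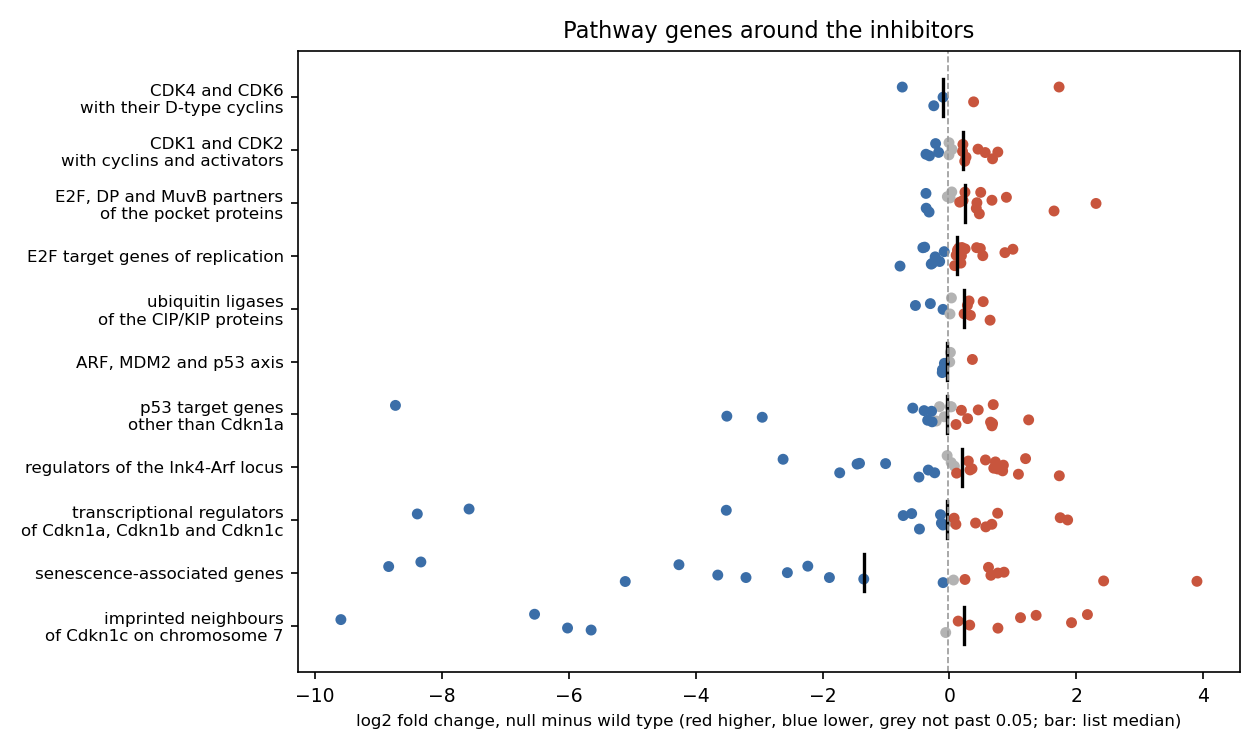
Each level of the y axis is 1 of the 11 functional lists and each point a tested gene at its log2 fold change (null minus wild type), red where called higher, blue where called lower and grey where not past 0.05. Black bars are list medians and the dashed line is the median of all genes at −0.02. Most medians lie within 0.25 of 0. The senescence list is at −1.35, but several of its genes passed the filter through wild-type-labelled counts alone.

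The 11 lists held 177 genes with none in more than 1 list. Their counts are descriptions beside the whole table, in which 38.1% of genes rose and 41.1% fell, and no list was tested against other genes. Listed genes that passed the filter through the counts of 1 group alone could only be called in that direction. Outside the senescence list, Cebpa, Foxo1 and Pmaip1 were among them.

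The profiles closest to the members at either end were found over all 15199 tested genes, as the root mean square difference in log2 CPM centred over the 6 libraries. Nearest to Cdkn2a were Pcdh19, a protocadherin gene, at 0.170, Thbs2 (thrombospondin 2) at 0.178 and Dlk1 at 0.193. Pcdh19 held 3571 counts in the wild-type-labelled libraries and 0 in the others, at least 1145-fold lower. Nearest to Cdkn1a were Foxa1, a pioneer transcription factor, at 0.0876, Gstp3 at 0.0961 and Llgl2 at 0.125. Foxa1 stood at 0.361 against 4.69 CPM. With 6 libraries in 2 groups, likeness here mostly reflects the size of the difference between the labels, in log2 CPM with a prior count of 2. That prior narrows the difference of genes with few counts, so fitted log2 fold changes need not match. Gstp3, with 2 counts against 76, had 5.06 beside 3.42 for Cdkn1a.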

How the data were processed

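The members, the gene lists and the tests were chosen with earlier results of these data known. RNA was measured in 3 wild-type-labelled and 3 null-labelled libraries, grouped by their titles, from single reads of 51 bp. Per the file headers, the authors deposited raw counts per Ensembl gene, made with featureCounts 1.6.2 on an annotation of Ensembl release 83 (GRCm38, mm10 names), with no option for strand, multimapping reads or reads in several genes. Reads over exons of more than 1 gene are then left out by the program's default, and transcripts of 1 gene are pooled. The submitters' processing notes name featureCounts 1.2.6, unlike the headers, after Subread 1.6.2, FastQC 0.11.2 and Trimmomatic 0.33, and hg38 beside GRCm38 and mm10 without a role.

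Of 46983 genes, 46488 had a symbol. Genes kept by filterByExpr (15199) were scaled by TMM. The test was the robust quasi-likelihood one of edgeR 4.0.16, run in R 4.3.3 without covariates, with Benjamini-Hochberg adjustment over all of them and a threshold of 0.05. The SE of a log2 fold change was obtained by dividing its size by √F. CPM used TMM-scaled totals, RPKM divided CPM by the exonic kilobases of the files, and likeness used log2 CPM with a prior count of 2. A fold against a group at 0 used 3 counts over the group, and count ratios carry exact binomial 95% intervals. Total counts of 15598566 to 23681718 set the precision of low genes. Libraries of a group differed by more than sampling noise (chi-square per degree of freedom 1.44 to 2.04), so none was a copy of another. This does not show whether they were separate preparations from 1 culture. Motifs were searched as exact letters on both strands.

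Named were the members, Sphk2, up to 3 genes of each functional list with the largest absolute log2 fold change among those called whose log2 CPM averaged 1 or more, every gene within 1 Mb of Cdkn2a with at least 10 counts that is not a predicted model, and the 3 genes most like the lowest and the highest member. Other genes were named after their values were seen. Of the genes the rule took, 1 is not reported here. The edgeR test was checked on simulated data. Alternatives were DESeq2's size factors in edgeR, DESeq2 1.42.0 itself, no filter, genes over 1 CPM in at least 3 libraries, a replicate block and leaving out each library.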

Additional observations from a re-analysis of the deposited data

How the results depend on the processing

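The members' fold changes were recomputed under 11 alternatives each, 110 values in all, of which 107 moved by less than the spread between libraries. Rb1 turned to a log2 fold change of −0.015 without wild-type-labelled replicate 3, against 0.04, and reached 0.082 without null-labelled replicate 2. Mtap moved to −1.23 with no filter on low counts, and Cdkn2b to −9.45 without null-labelled replicate 1, which held 3 of its 5 null-labelled counts. Over the alternatives Cdkn2a ran from −9.40 to −9.11, Cdkn1a from 3.21 to 3.57 and Cdkn1c from −4.94 to −4.64. All 428 values of 39 other named genes kept their direction and their side of the threshold. More genes than these are named above, and the values do not cover the rest. Around Cdkn2a, the genes called higher went from 1 to 2 with no filter, and those called lower ran from 5 (over 1 CPM) to 10 (DESeq2 and no filter). Over the whole table, 5250 (DESeq2) to 6011 (no filter) genes were higher and 5876 (over 1 CPM) to 7303 (no filter) lower. The replicate numbers did not pair the libraries, with correlations of 0.0123, −0.0028 and 0.0181 between deviations of libraries of the same number. With a replicate block, 5765 genes were higher and 6238 lower, against 5795 and 6245, and the counts of the window, the members and the 11 lists did not change. Depth limits the folds of genes whose null-labelled libraries lie at or under 3 counts, among them Cdkn2b, Wincr1, Gm12602, Gm12610 and Dmrta1.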
